A study of Homo sapiens with 6 samples.

Results

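The genes described here were the 34 genes that carry out glutathione synthesis, glutathione breakdown, the reduction of oxidised glutathione and the transferase and peroxidase reactions that consume it. They were chosen by gene symbol, as glutathione metabolism without ribonucleotide reductase, *ODC1* and *CHAC1*, and all 34 had a row in a table of 58735 genes. By role they comprised 3 synthesis genes, 8 genes of the gamma-glutamyl cycle and peptide cleavage, 4 genes of glutathione reduction and NADPH supply, 6 peroxidases, 10 soluble transferases and 3 microsomal transferases.

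Glutathione is a tripeptide of glutamate, cysteine and glycine and the most abundant thiol of the cell. Glutamate-cysteine ligase and glutathione synthetase build it in the cytosol. Peroxidases oxidise it to a disulfide while they remove peroxides, glutathione reductase restores it with NADPH, transferases attach it to electrophiles, and the gamma-glutamyl cycle takes it apart outside and inside the cell. The thyroid makes hydrogen peroxide for hormone synthesis, and glutathione peroxidases are among the enzymes that dispose of it there.

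mRNA was sequenced in TPC-1 cells, an established line of human papillary thyroid carcinoma, to learn what overexpression of *RRM2*, the small subunit of ribonucleotide reductase, does to the transcriptome. The 3 control libraries came from the TPC-1 wild strain, and the 3 *RRM2*-OE-TPC-1 libraries came from TPC-1 cells infected with a lentivirus that carried full-length *RRM2* under a CMV promoter and then selected with puromycin. All 6 libraries shared the parental line, and the design text calls the replicates biological, without saying whether they were separate cultures, so p-values measure the spread between these libraries. No empty-vector library was analysed here, so infection, selection and *RRM2* itself cannot be told apart, and it was not stated whether the overexpressing cells were a clone or a pool. The genotype field of *RRM2*-OE-TPC-1 replicates 2 and 3 named RRM3 and RRM4 while their titles named *RRM2*. *RRM2* was at 9.17, 9.05 and 8.52 FPKM in the TPC-1 libraries and at 50.4, 47.5 and 47.2 FPKM in the *RRM2*-OE-TPC-1 libraries, so the libraries fell as their titles say (log2 fold change 2.43, SE 0.0442, adjusted p = 1.11e-08, limma). Reads of the introduced and of the endogenous gene cannot be told apart in these values. FPKM relate the reads of a gene to its exon length and to a depth of the library, and each library held 14317091 to 17084067 reads on genes. The depth behind the deposited values followed median-of-ratios factors, which scale libraries by their median gene (relative ratio 0.999 to 1.001). It was 1.03 to 1.05 times the reads on genes in TPC-1 and 0.997 to 1.01 times in *RRM2*-OE-TPC-1. Of the thyroid markers *PAX8* and *FOXE1* were expressed, while *TG*, *TSHR*, *NKX2-1*, *SLC5A5* and *DIO1* stayed below 0.5 FPKM in every library, as did all 6 leukocyte markers, 3 of 4 endothelial markers and 4 of 5 fibroblast markers. Of 6 epithelial keratin and adhesion markers, *KRT19*, *EPCAM* and *CDH1* were below 0.5 FPKM everywhere, and the summed level of the list was 42.9 to 47.1 FPKM in TPC-1 and 88.4 to 90.8 FPKM in *RRM2*-OE-TPC-1. Nearly all of that sum was *KRT18* (log2 fold change 1.05), with *KRT8* at 0.43 and *KRT7* at -0.21. *PAX8* and *FOXE1* had log2 fold changes of -0.24 and -0.42, and the markers of other cells that reached the minimum in TPC-1, *PECAM1* and *COL1A1*, had -2.71 and -0.61 from levels of at most 1.04 and 0.866 FPKM. The part of these marker shifts in the results was not tested.

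Most of the glutathione genes that TPC-1 cells expressed changed in *RRM2*-OE-TPC-1 (80.0% of those tested, against 67.6% of all tested genes). The changes went in both directions and were mostly less than 1 on the log2 scale. *GCLM*, *GGCT*, *LAP3*, *PGD*, *GPX1*, *GSTK1*, *GSTO1* and *GSTP1* rose. *GGT1*, *GGT7*, *OPLAH*, *GSR*, *IDH1*, *IDH2*, *GPX4*, *GPX8*, *GSTA4*, *GSTM4*, *MGST1* and *MGST3* fell, and of these *GGT1* and *OPLAH* fell by more than 1 on the log2 scale. *GGT1* passed the minimum level only through the TPC-1 libraries, and its log2 fold change was -0.91 with a pseudocount of 1. *GCLC*, *GSS*, *GPX3*, *GSTZ1* and *MGST2* did not pass the test. The small changes of *PGD* and *GPX8* lost their calls in 8 and 6 of 14 alternative fits. The abundant members divided in the same way, with *GPX1* and *GSTP1* higher and *GPX4* and *IDH2* lower.

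The test was limma on log2(FPKM + 0.1), and it could be made for 25 of the 34 members, those with at least 0.5 FPKM and 10 reads in at least 3 libraries. At an adjusted p of 0.05 or less, 20 of the 25 tested members changed (80.0%), against 67.6% of all 13621 tested genes. The 8 that rose compare with a background of 34.9% of tested genes that rose, and the 12 that fell with 32.7% that fell. When the log2 fold change also had to reach 1 in size, no member rose, where 4.48% of tested genes did, and 2 members fell, where 6.97% did. The choice of the 34, made with earlier results of these data known, shaped these counts. It left out *CHAC1*, *ODC1*, *RRM1* and *RRM2B*, with log2 fold changes of -2.63, 1.36, 1.32 and 1.02. Of the 2 that fell, *GGT1* entered the test through the TPC-1 libraries alone. The 3 libraries of one group lay entirely above or below those of the other for 21 of the 25 tested members, a property that 72.2% of tested genes had. The median log2 fold change was -0.27 over the tested members and 0.01 over all tested genes, and the median absolute value was 0.54 against 0.37. In a bulk library a change in the share of cells that express a gene and a change in RNA per cell cannot be told apart.

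**Figure D1:**
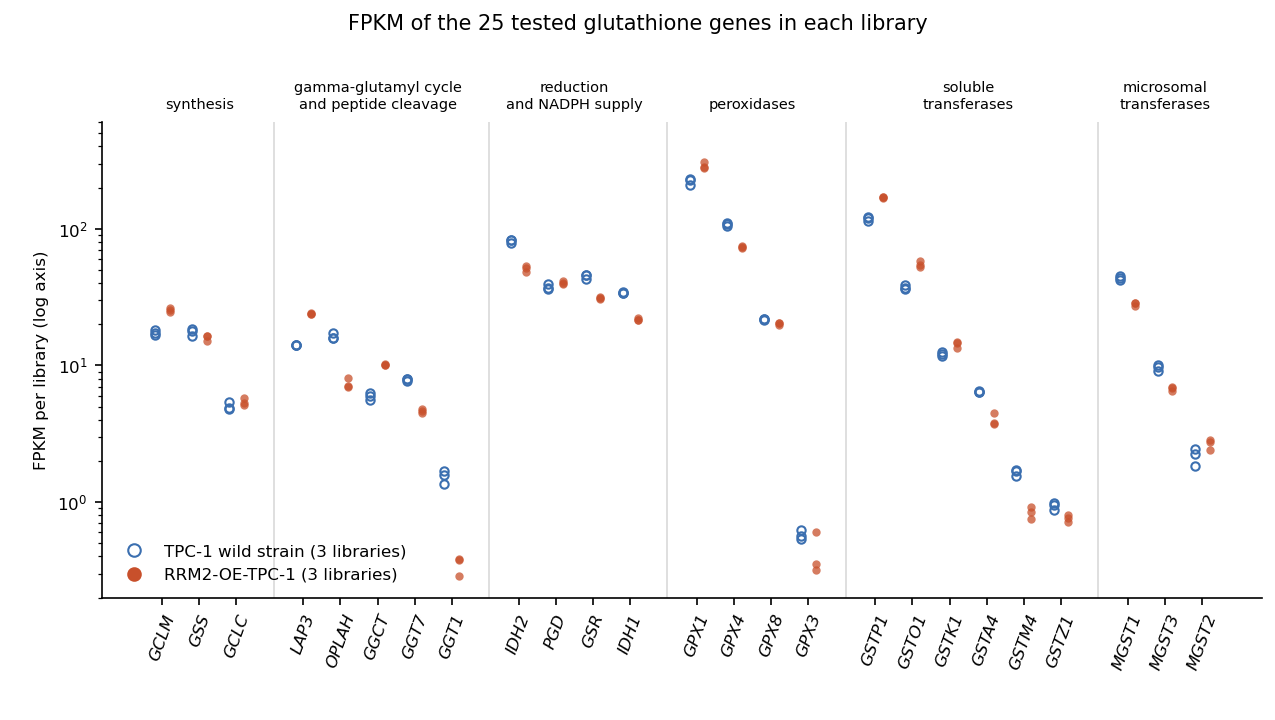
FPKM of the 25 tested members in each of the 6 libraries, on a log axis, ordered by role and by mean level within a role; open blue circles are TPC-1 wild strain and filled orange circles *RRM2*-OE-TPC-1. *GPX1* and *GSTP1* sit at the top with every *RRM2*-OE-TPC-1 library above every TPC-1 library, whereas *GPX4*, *IDH2* and *MGST1* show the opposite order.

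**Figure D2:**
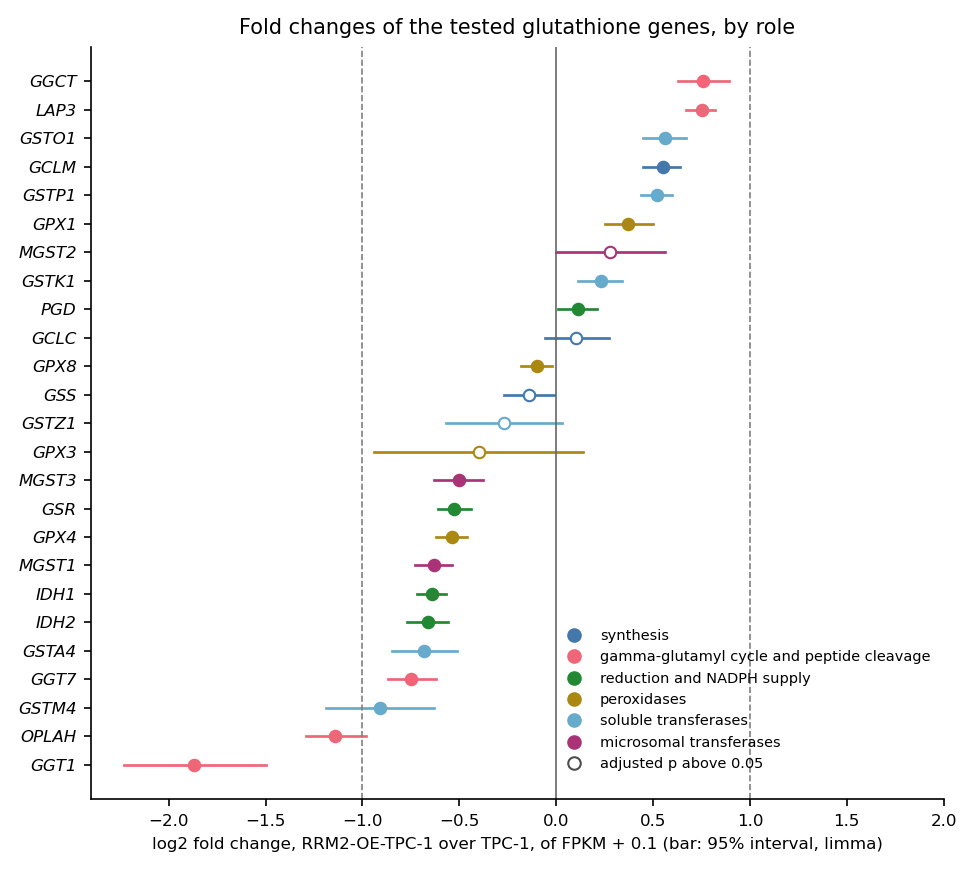
Log2 fold change of FPKM + 0.1 for each tested member, *RRM2*-OE-TPC-1 over TPC-1, coloured by role, with the 95% interval from limma as a bar; open points had an adjusted p above 0.05 and dashed lines mark -1 and 1. Only *GGT1* and *OPLAH* have their point beyond a dashed line. The gamma-glutamyl, reduction, peroxidase and soluble transferase roles hold filled points on both sides of 0, the reduction role through *PGD* alone above it.

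Several glutathione genes carry an antioxidant response element, the DNA motif bound by NRF2 with small MAF proteins, and its core, TGACNNNGC on one strand and GCNNNGTCA on the other, was searched in the RefSeq promoter windows of GRCh38.p14 (250 bases before to 50 after each annotated start). The core was held by 4687 of 35116 such windows (13.3%), and 16.1% of gene symbols had it in at least 1 window. Promoter windows were at hand for 27 members, and 10 of these (37.0%) had a match. Among tested members with a window a match was present in 4 of 7 that rose, in 4 of 10 that fell and in 0 of 3 that did not pass. *GSS*, *GGT5*, *GGT6*, *GGCT*, *OPLAH*, *GSR* and *MGST2* had no window. The matches of the tested members are given with 10 bases on either side, because members that rose and members that fell carried the same core. Each line reads 5′ to 3′ on the strand of the gene, and the capitals mark the core or its reverse complement.
GCLM: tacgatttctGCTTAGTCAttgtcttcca
GSTP1: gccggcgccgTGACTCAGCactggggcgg
GSTO1 upstream match: ggcggagggaTGACTGAGCatttataact
GSTO1 downstream match: cgagatgcttTGACACAGCcccttaagat
PGD: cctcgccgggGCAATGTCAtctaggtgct
GGT1: ggaaggaggaGCTGGGTCAcagcagggaa
IDH1: cccctctcgcTGACTCCGCccatcccacg
GSTA4: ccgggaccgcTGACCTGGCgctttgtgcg
MGST1: ggggacatcgTGACAAAGCaaattgtctg
A match of these letters is a description of the sequence, not a binding site.

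These stretches lie at chr1:93909446-93909474 for *GCLM* (minus strand), chr11:67583736-67583764 for *GSTP1* (plus), chr10:104254656-104254684 and chr10:104254721-104254749 for *GSTO1* (plus), chr1:10398853-10398881 for *PGD* (plus), chr22:24603154-24603182 for *GGT1* (plus), chr2:208255196-208255224 for *IDH1* (minus), chr6:52995275-52995303 for *GSTA4* (minus) and chr12:16347135-16347163 for *MGST1* (plus). In GENCODE 29 the stretches of *PGD* and *IDH1* and the upstream one of *GSTO1* are in introns of their own gene. The others overlap an untranslated part of an exon of at least 1 transcript of their own gene, and that of *GGT1* also lies inside the longer *SNRPD3* gene.

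The first reaction of glutathione synthesis is made by glutamate-cysteine ligase, whose catalytic subunit is *GCLC* and whose modifier subunit is *GCLM*, and the second by glutathione synthetase, *GSS*. Of these 3 genes only the modifier subunit passed the test. *GCLM* (ENSG00000023909, chromosome 1, 93885205 to 93909456) was at 16.8, 17.3 and 18.3 FPKM in TPC-1 and at 26.1, 25.6 and 24.8 FPKM in *RRM2*-OE-TPC-1. Every *RRM2*-OE-TPC-1 library was above every TPC-1 library, and the log2 fold change was 0.55 (SE 0.0431, adjusted p = 1.25e-05, limma). *GCLC* ranged from 4.82 to 5.44 FPKM in TPC-1 and from 5.15 to 5.76 FPKM in *RRM2*-OE-TPC-1, and these ranges overlapped (log2 fold change 0.10, 95% interval -0.06 to 0.27). *GSS* was at 17.5 ± 1.12 FPKM (SD, n = 3) in TPC-1 and 15.9 ± 0.734 FPKM in *RRM2*-OE-TPC-1 (log2 fold change -0.14, adjusted p = 0.0585, limma), and without TPC-1 replicate 2 it passed the test at -0.19. Within each library *GCLM* exceeded *GCLC* by 3.36 to 3.57 times in TPC-1 and by 4.30 to 4.97 times in *RRM2*-OE-TPC-1, so the balance of the ligase's subunit mRNAs was shifted without overlap.

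The gamma-glutamyl cycle held both members past the fold threshold as well as the largest rises. All 5 of its tested genes changed, with 3 lower and 2 higher, against 67.6% of all tested genes. *GGT1*, a cell-surface gamma-glutamyltransferase that starts the breakdown of extracellular glutathione (ENSG00000100031, chromosome 22, 24583750 to 24629005), was at 1.68, 1.35 and 1.57 FPKM in TPC-1. In *RRM2*-OE-TPC-1 it was at 0.374, 0.290 and 0.382 FPKM. The lowest TPC-1 value was thus well above the highest *RRM2*-OE-TPC-1 value, the mean was 4.40 times higher in TPC-1, and the log2 fold change was -1.87 (SE 0.158, adjusted p = 1.80e-05, limma). These values rest on 101 to 124 reads per TPC-1 library and 22 to 27 reads per *RRM2*-OE-TPC-1 library, and *GGT1* was the 1 tested member that entered the test through the TPC-1 libraries alone, so a difference was built into its selection. Of its exonic bases 306 (6.90%) also belong to *SNRPD3* on the same strand, which was at a mean of 23.5 FPKM in TPC-1 and 38.7 FPKM in *RRM2*-OE-TPC-1, and 13.2% of its 100-base transcript stretches recur in other genes, with *GGTLC2* sharing the most at 5.96%, so its level is uncertain where reads were shared.

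*OPLAH* opens the ring of 5-oxoproline to return glutamate to the cycle (ENSG00000178814, chromosome 8, 144051266 to 144063965). Its level was 15.9, 15.8 and 17.2 FPKM in TPC-1 and 7.07, 8.08 and 6.92 FPKM in *RRM2*-OE-TPC-1. The groups were far apart relative to their spread, with a mean 2.21 times higher in TPC-1 and a log2 fold change of -1.14 (SE 0.0675, adjusted p = 2.71e-06, limma). *GGT7*, a relative of *GGT1*, fell from 7.84 ± 0.121 to 4.63 ± 0.189 FPKM (log2 fold change -0.75). *GGCT*, which releases 5-oxoproline from gamma-glutamyl amino acids and so stands just before *OPLAH*, went the other way, from 5.59 to 6.33 FPKM in TPC-1 up to 10.1 to 10.2 FPKM in *RRM2*-OE-TPC-1 (log2 fold change 0.76). *LAP3*, a leucine aminopeptidase that can cleave the cysteinylglycine left by gamma-glutamyltransferase, had the highest mean of the group over all 6 libraries, although *OPLAH* was above it in every TPC-1 library (ENSG00000002549, chromosome 4, 17577192 to 17607972). It rose from 14.2, 14.0 and 14.2 FPKM to 24.3, 23.6 and 23.7 FPKM (log2 fold change 0.75, SE 0.0335, adjusted p = 7.01e-07, limma). *LAP3* took 30.1% to 31.2% of the summed level of the group in TPC-1 and 50.7% to 52.1% in *RRM2*-OE-TPC-1, while the sum itself was 46.4 ± 0.880 and 46.3 ± 0.355 FPKM. The composition of the group moved while its total stayed within the spread between libraries.

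*GGT5*, another cell-surface gamma-glutamyltransferase, was too low for the test. It was at 0.515, 0.717 and 0.498 FPKM in TPC-1, from 48 to 73 reads, and at 0.0229, 0.0771 and 0 FPKM in *RRM2*-OE-TPC-1, from 0 to 8 reads. The groups did not overlap. Without the filter on low values its log2 fold change was -2.37 (SE 0.340, adjusted p = 0.00239, limma), in a fit in which 29.1% of 30958 genes passed the p threshold. *GGT6* did not exceed 0.0199 FPKM and the aminopeptidase *ANPEP* 0.0369 FPKM in any library.

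Of the genes that keep glutathione reduced, glutathione reductase and both NADP-dependent isocitrate dehydrogenases fell together. *IDH2*, the mitochondrial isocitrate dehydrogenase (ENSG00000182054, chromosome 15, 90083045 to 90102504), led the group at 83.3, 82.1 and 78.8 FPKM in TPC-1 and 53.6, 48.6 and 51.8 FPKM in *RRM2*-OE-TPC-1. No library of one group reached the other, and the log2 fold change was -0.66 (SE 0.0436, adjusted p = 4.57e-06, limma). *IDH1*, its cytosolic counterpart, went from a range of 33.7 to 34.4 FPKM to one of 21.5 to 22.1 FPKM (log2 fold change -0.64). *GSR*, glutathione reductase itself, went from 45.0 ± 1.56 to 31.2 ± 0.570 FPKM (log2 fold change -0.53, adjusted p = 6.29e-06, limma). *PGD*, which makes NADPH in the pentose phosphate pathway, was slightly higher, at 36.4 to 39.4 FPKM in TPC-1 and 39.6 to 41.6 FPKM in *RRM2*-OE-TPC-1 (log2 fold change 0.11, adjusted p = 0.0441, limma). The *PGD* call was lost in 8 of 14 alternative fits, those without TPC-1 replicate 1 or 2 or *RRM2*-OE-TPC-1 replicate 2 or 3 among them (0.09 to 0.12), and scaled to library totals its log2 fold change was 0.05. The ratio of *IDH1* to *IDH2* within a library was 0.418 ± 0.0164 in wild-strain cells and 0.423 ± 0.0160 in *RRM2*-OE-TPC-1, with overlapping libraries (exact permutation p = 0.6, adjusted p = 0.72, two-sided).

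Glutathione peroxidases split by member, and the most abundant pair moved apart. *GPX1*, the cytosolic enzyme that reduces hydrogen peroxide (ENSG00000233276, chromosome 3, 49357171 to 49358600), was at 229, 209 and 232 FPKM in TPC-1 and 306, 279 and 282 FPKM in *RRM2*-OE-TPC-1. Its log2 fold change was 0.37 (SE 0.0543, adjusted p = 4.11e-04, limma), and it was the most abundant member overall. *GPX4*, which reduces lipid hydroperoxides in membranes, fell from between 104 and 110 FPKM in TPC-1 to between 72.7 and 75.1 FPKM in *RRM2*-OE-TPC-1 (log2 fold change -0.54, SE 0.0333, adjusted p = 3.19e-06, limma). Within a library *GPX4* was 0.449 to 0.525 of *GPX1* in TPC-1 and 0.245 to 0.261 of it in *RRM2*-OE-TPC-1, a separation without overlap. *GPX8*, a peroxidase of the endoplasmic reticulum, was lower by a small amount, at 21.6 to 22.0 against 19.9 to 20.6 FPKM (log2 fold change -0.10, adjusted p = 0.0269, limma), and its call was lost in 6 of 14 alternative fits, those without TPC-1 replicate 1 or 3 or *RRM2*-OE-TPC-1 replicate 2 or 3 among them (-0.11 to -0.09). Scaled to library totals, *GPX8* had a log2 fold change of -0.16. *GPX3*, the secreted form, was at 0.536 to 0.620 FPKM in TPC-1 and 0.317 to 0.609 FPKM in *RRM2*-OE-TPC-1 (log2 fold change -0.40, 95% interval -0.94 to 0.14), and without *RRM2*-OE-TPC-1 replicate 2 it passed the test (log2 fold change -0.64, adjusted p = 0.0259, limma). *GPX2* did not exceed 0.278 FPKM. The annotation lists *GPX1* as a polymorphic pseudogene, and 4.25% of its 100-base stretches recur in *GPX1P1*, whose mean was 5.82 FPKM.

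*GPX1* and *GPX4*, which moved in opposite directions, share their catalytic residue. The coding sequences of *GPX1*, *GPX3* and *GPX4* in GENCODE 29 hold an in-frame TGA, read as selenocysteine, where *GPX8* holds a TGC for cysteine. The stretches of 45 coding bases around that codon are printed here because they set the selenocysteine enzymes apart from the cysteine enzyme, with the active-site codon in capitals.
GPX1: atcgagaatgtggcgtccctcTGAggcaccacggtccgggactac
GPX3: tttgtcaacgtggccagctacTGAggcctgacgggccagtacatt
GPX4: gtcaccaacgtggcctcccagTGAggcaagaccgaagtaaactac
GPX8: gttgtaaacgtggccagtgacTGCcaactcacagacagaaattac
The codon is number 49 in *GPX1*, 73 in *GPX3*, 73 in *GPX4* and 79 in *GPX8*, on chromosomes 3, 5, 19 and 5. Of the 3 selenocysteine members tested, 1 rose, 1 fell and 1 did not pass the test. Over all tested genes 34.9% rose and 32.7% fell, so this split was near the background.

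Among the 6 soluble transferases tested, *GSTP1*, *GSTO1* and *GSTK1* rose while *GSTA4* and *GSTM4* fell. *GSTP1*, the pi-class transferase (ENSG00000084207, chromosome 11, 67583595 to 67586656), made up most of the group. It was at 120, 114 and 122 FPKM in TPC-1 and at 169, 170 and 171 FPKM in *RRM2*-OE-TPC-1, with a log2 fold change of 0.52 (SE 0.0358, adjusted p = 5.86e-06, limma). The *RRM2*-OE-TPC-1 libraries were all above the TPC-1 libraries. *GSTO1*, an omega-class enzyme that reduces mixed disulfides, rose from 37.3 ± 1.23 to 55.0 ± 3.12 FPKM (log2 fold change 0.56). *GSTK1*, a kappa-class enzyme of mitochondria and peroxisomes, was at 11.8 to 12.5 FPKM and 13.5 to 14.8 FPKM (log2 fold change 0.23, adjusted p = 0.00374, limma). *GSTA4*, which conjugates the lipid aldehyde 4-hydroxynonenal, fell from 6.45 ± 0.0892 to 4.00 ± 0.396 FPKM (log2 fold change -0.68). *GSTM4*, the 1 mu-class gene above the minimum, fell from 1.56 to 1.72 FPKM to 0.747 to 0.918 FPKM (log2 fold change -0.91, SE 0.120, adjusted p = 2.30e-04, limma). *GSTZ1*, a zeta-class enzyme of tyrosine breakdown, was at 0.937 ± 0.0516 and 0.760 ± 0.0458 FPKM, and although its libraries did not overlap it missed the threshold (adjusted p = 0.0948, limma). Of *GSTM4* exonic bases 375 (6.53%) are shared with *GSTM2* on the same strand and 2.80% of its 100-base stretches recur in other genes, of which *GSTM5*, at 1.35%, shared the most and was listed at 0. With a pseudocount of 1 the log2 fold change of *GSTM4* was -0.53.

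Of the soluble transferases 4 were below the minimum for the test, as was the peroxidase *GPX7*. *GSTM1* and *GPX7* had no reads in any of the 6 libraries, and 3 reads would have been 0.0697 to 0.0826 FPKM for *GSTM1* and 0.104 to 0.123 FPKM for *GPX7*. *GSTM3* had 1 read in all, and *GSTM2* and *GSTO2* stayed at or below 0.0913 and 0.120 FPKM. These 5 genes were below the minimum in both groups and gave no comparison.

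Microsomal transferases are membrane enzymes with transferase and peroxidase activity. *MGST1* (ENSG00000008394, chromosome 12, 16347142 to 16609259) was at 45.1, 42.0 and 43.6 FPKM in TPC-1 and at 27.0, 28.6 and 28.6 FPKM in *RRM2*-OE-TPC-1. It fell without overlap (log2 fold change -0.63, SE 0.0406, adjusted p = 4.04e-06, limma). *MGST3* fell with it, from 9.62 ± 0.472 to 6.75 ± 0.225 FPKM (log2 fold change -0.50). *MGST2*, which can conjugate glutathione to a leukotriene, overlapped between groups at 1.85 to 2.45 and 2.41 to 2.84 FPKM (log2 fold change 0.28, adjusted p = 0.0679, limma). Without TPC-1 replicate 3 it passed the test at 0.36, and 252 of its exonic bases lie opposite *MAML3*.

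When the levels of all members of a role were summed in each library, the groups of 3 libraries did not overlap for 5 of the 6 roles. Synthesis summed to 40.0 ± 1.66 FPKM in TPC-1 and 46.8 ± 1.12 FPKM in *RRM2*-OE-TPC-1, and soluble transferases to 177 ± 5.14 and 245 ± 2.49 FPKM. The peroxidase sum, in which *GPX1* outweighs the others, was 353 ± 10.5 and 384 ± 15.9 FPKM. Reduction and NADPH supply summed to 198 ± 0.923 and 145 ± 1.99 FPKM, and microsomal transferases to 55.4 ± 1.84 and 37.5 ± 1.34 FPKM. On the log2 scale the differences were 0.23, 0.47 and 0.12 for the roles with the higher sums and -0.45 and -0.56 for those with the lower sums. Scaled to library totals, the peroxidase difference was 0.06. With 3 libraries against 3 a two-sided exact permutation test cannot go below p = 0.1, and each of these 5 sums gave that value (p = 0.1, adjusted over 6 roles p = 0.12, exact permutation). No call can therefore rest on the sums.

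Ratios within a library do not depend on how libraries were scaled to each other. The ratio of *GPX4* to *GPX1* showed the widest separation of the 6 ratios taken, from 0.483 ± 0.0383 in TPC-1 to 0.256 ± 0.00893 in *RRM2*-OE-TPC-1 (log2 difference -0.92). *GCLM* to *GCLC* was 3.47 ± 0.107 and 4.72 ± 0.365, *GSTP1* to all other soluble transferases 2.02 ± 0.0709 and 2.27 ± 0.0843, and *MGST1* to *MGST3* 4.53 ± 0.0796 and 4.16 ± 0.0538. For these 4 ratios the libraries did not overlap, which is the smallest exact permutation p the design allows (p = 0.1, adjusted over 6 ratios p = 0.15). *GSR* to *GPX4* was 0.418 ± 0.0224 and 0.422 ± 0.00854, with overlapping libraries although both genes fell (log2 difference 0.01, exact permutation p = 0.9).

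**Figure D3:**
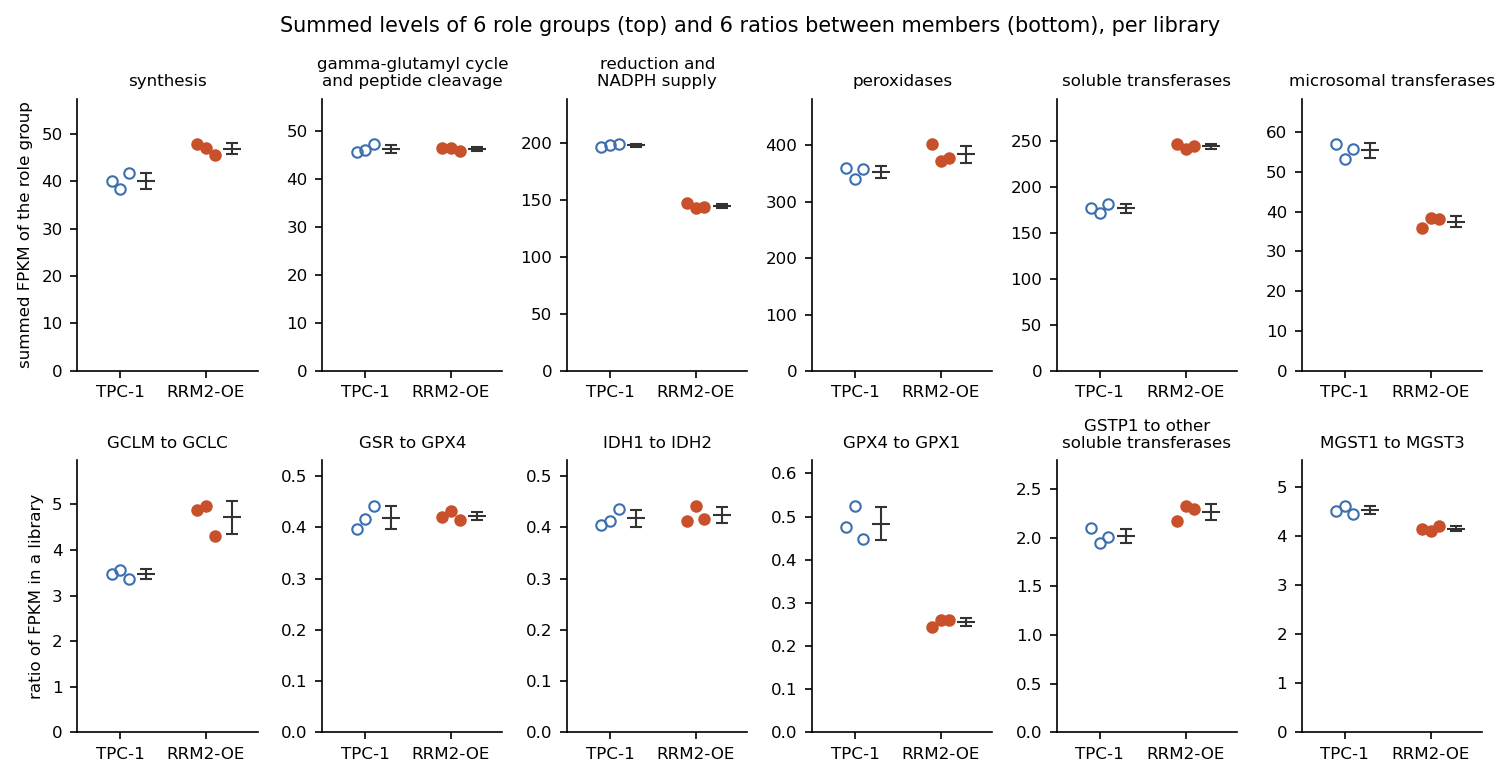
Summed FPKM of the members of each role (top row) and the ratio of FPKM between members (bottom row) in each library, TPC-1 wild strain in open blue and *RRM2*-OE-TPC-1 in filled orange, with the mean and SD of 3 libraries in dark bars; every axis starts at 0. The gamma-glutamyl sum and the ratios of *GSR* to *GPX4* and *IDH1* to *IDH2* overlap between groups, and the other 9 panels do not.

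Against all 13621 tested genes the members were abundant. A mean level above the median gene was found for 18 of the 25 tested members, and *GPX1*, *GSTP1*, *GPX4* and *IDH2* together made up 60.6% to 61.7% of the summed level of all 34 members in TPC-1 and 64.0% to 65.2% in *RRM2*-OE-TPC-1. *GGT1* was at the 1.57 percentile of log2 fold change and *OPLAH* at the 5.48 percentile. At the other end *GGCT* was at the 91.3 and *LAP3* at the 91.1 percentile, so that other tested genes rose further. *GPX1* and *GSTP1* were at the 99.4 and 98.7 percentiles of level.

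**Figure D4:**
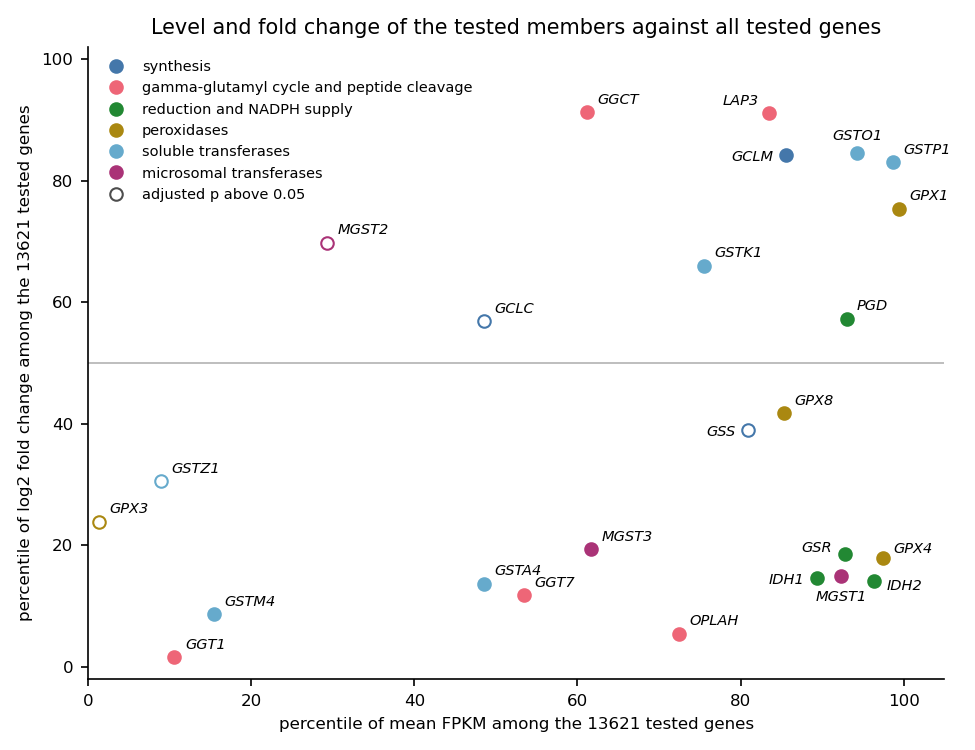
Percentile of mean FPKM (horizontal) and of log2 fold change (vertical) of each tested member among the 13621 tested genes, coloured by role, with open points for an adjusted p above 0.05 and a grey line at the median fold change. *GPX4*, *IDH2*, *GSR*, *MGST1* and *IDH1* form a group of abundant genes at the 14.1 to 18.5 percentiles of log2 fold change. *GGT1*, *OPLAH*, *GSTM4* and *GGT7* lie below them, and *GPX1*, *GSTP1*, *GSTO1*, *GCLM* and *LAP3* lie high at the right.

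The study built a risk signature of 9 genes on patient tumours, and 6 of the members belong to it. Of these, *GCLM* rose, *GSR*, *IDH2* and *OPLAH* fell, *GSTZ1* did not pass the test and *GGT5* was too low for it. The called share of the 5 tested was 80.0%, against 67.6% of all tested genes. In the study's score *GSR* and *GSTZ1* have positive coefficients and the other members here negative ones. The changes of *GCLM* and *GSR* would thus lower the score and those of *IDH2* and *OPLAH* raise it. The score was not computed here.

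Other genes of glutathione metabolism, among them those that the choice of the 34 left out, included larger changes. Of 27 listed, 26 had a row, 14 were tested, 8 rose and 5 fell, and *GSTT1* was not analysed here. The called share was 92.9%, against 67.6% of all tested genes. Past both thresholds, *CHAC1*, which degrades cytosolic glutathione, fell from 64.9 to 10.4 FPKM (log2 fold change -2.63, adjusted p = 1.32e-08, limma). The ribonucleotide reductase genes *RRM1* and *RRM2B* rose by 1.32 and 1.02 on the log2 scale beside *RRM2*. *ODC1* and *SMS*, which make polyamines, rose by 1.36 and 1.12 on that scale. *GSTT2* fell by 1.45 on the log2 scale, but *GSTT2B*, a near-identical copy, did not pass (log2 fold change -0.18), so the reads of this pair are uncertain. *RRM2* is itself 1 of the 8 that rose, and its rise was fixed by the design. Without it 7 of 13 rose and 5 fell, a share of 92.3%. The median log2 fold change was then 0.22 and the median absolute value 0.97, against 0.01 and 0.37 over all tested genes.

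Both enzymes of transsulfuration and the importer of cystine, which supply cysteine for synthesis, fell. Of 14 such genes and users of glutathione, all tested, 5 rose and 4 fell, and these 64.3% lie near the background of 67.6%. The 5 that rose were *GLRX*, *GLRX3*, *GLRX5*, *GLO1* and *GSTCD*, with log2 fold changes of 0.31 to 0.80. *CARS1* fell by less than the genes below (log2 fold change -0.43). *CBS* and *CTH*, which make cysteine from homocysteine, both had a log2 fold change of -2.04, from 28.0 to 6.75 FPKM and from 15.0 to 3.58 FPKM (adjusted p = 1.03e-06 and 4.65e-07, limma). *SLC7A11*, the cystine importer, was at 17.7, 18.0 and 19.3 FPKM in TPC-1 and 7.75, 7.94 and 7.93 FPKM in *RRM2*-OE-TPC-1 (log2 fold change -1.21, adjusted p = 2.83e-07, limma). Its partner chain *SLC3A2* did not pass the test (log2 fold change -0.13), nor did the glutathione conjugate exporter *ABCC1* (log2 fold change -0.03). Of the synthesis genes, *GCLM*, the modifier subunit of the ligase, was the 1 that rose. *GCLC*, the catalytic subunit, did not pass the test (log2 fold change 0.10).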

How the data were processed

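The authors removed adapters, aligned paired reads, counted reads per gene and deposited FPKM, which are the only values used here. The submitters' processing notes name HISAT2 2.0.5, featureCounts 1.5.0, DESeq2 1.20.0 and GRCh38.p14; all 58735 gene positions were those of GENCODE 29. The labels describe ribosomal RNA removal with RNase R digestion, the study's methods poly(A) selection; strand use in counting is not given in the sources used here. All values above 0 were whole multiples of what 1 read is worth (100.0% within 0.01 reads), so reads were recovered.

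Genes with at least 0.5 FPKM and 10 reads in 3 libraries were fitted with limma 3.58.1 in R 4.3.3 (lmFit, eBayes with trend) on log2(FPKM + 0.1), with Benjamini-Hochberg adjustment over 13621 genes. Sums and ratios used exact permutation tests. The 34 members and the gene lists were chosen with earlier results of these data known. Every member was accounted for, with values per library for those past both thresholds and for the most abundant of each role. Some listed genes are not reported here. By rule, companion genes were named if past both thresholds, at most 8 a list. *GSTT2B*, *SLC3A2*, *ABCC1*, *NFE2L2*, *KEAP1*, *NQO1*, *TXN*, *ME1*, *TKT* and *TALDO1* were named beside them after their values were seen. So were *GLRX*, *GLRX3*, *GLRX5*, *GLO1*, *GSTCD* and *CARS1*. Sequences came from RefSeq windows (GRCh38.p14) and GENCODE 29 transcripts. Other fits changed the filter, the pseudocount, the scaling or the replicate block, used limma voom on recovered reads, or left out 1 library. Groups came from the titles, 3 libraries each, with 14317091 to 17084067 reads on genes per library.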

Additional observations from a re-analysis of the deposited data

How the results depend on the processing

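Over 14 alternative fits and 25 tested members, 329 of 350 log2 fold changes kept their direction and their side of the threshold, 14 lost the call (*PGD* in 8 and *GPX8* in 6), 7 gained it (*GSS*, *MGST2*, *GPX3* and *GSTZ1*), and 0 changed direction. The number of members past the p threshold ran from 18 to 21. The fit scaled by median-of-ratios factors called the same 20 members. Its agreement was built in, because the deposited values already follow those factors. With a pseudocount of 1, only 1 member was lower past both thresholds instead of 2, because the log2 fold change of *GGT1* was -0.91. Scaling to library totals moved the median gene from 0.011 to -0.045 on the log2 scale and the summed levels to 0.17 for synthesis, -0.06 for the gamma-glutamyl cycle, -0.51 for reduction, 0.06 for peroxidases, 0.41 for soluble transferases and -0.62 for microsomal transferases. limma voom on recovered reads called 9577 genes against 9207. The log2 fold change of *RRM2* was 2.32 to 2.45. Replicate numbers did not pair the libraries: deviations of same-numbered libraries correlated at -0.011, -0.006 and -0.055. With the replicate block 19 members passed the p threshold, *GPX8* and *PGD* being lost and *MGST2* gained. Reads limit the values of *GGT1*, *GGT5* and *GPX3*, which rest on few reads per library, and 3 libraries a group limit every sum and ratio.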

Other observations

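The genes of NRF2 and its redox companions, 15 in all and all tested, were called at a share near the background: 6 rose, 5 fell and 4 did not pass the test, so that 73.3% passed against 67.6% of all tested genes. Their median log2 fold change was 0.21. *HMOX1*, heme oxygenase, was the 1 gene of the list past both thresholds, at 14.4, 13.6 and 14.3 FPKM in TPC-1 and 38.2, 37.9 and 37.3 FPKM in *RRM2*-OE-TPC-1 (log2 fold change 1.42, SE 0.0366, adjusted p = 5.43e-08, limma). Named after their values were seen, *NFE2L2*, the gene of NRF2, fell from 25.1 to 17.1 FPKM (log2 fold change -0.56) and *KEAP1*, its inhibitor, rose from 20.2 to 26.2 FPKM (log2 fold change 0.37). *NQO1*, a quinone reductase and classical NRF2 target, fell by 0.53 on the log2 scale, from 159 to 110 FPKM, while *TXN*, thioredoxin, rose from 140 to 267 FPKM (log2 fold change 0.93).

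Enzymes of NADPH supply and of the pentose phosphate pathway, chosen here after their values were seen, also split. *ME1*, which makes NADPH from malate, and *TKT*, transketolase, had log2 fold changes of -0.79 and -0.76, in the direction of *IDH1* and *IDH2*. *TALDO1*, transaldolase, and *PGD* had 0.59 and 0.11 (the last lost in 8 of 14 alternative fits).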
